A study of Homo sapiens with 30 samples.

Results

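HepG2 cells, an established human liver tumour line, were transfected with an inhibitor of miR-200c-3p (I-miR-200c-3p, an antisense oligonucleotide that blocks the miRNA) or with an inhibitor control (IC), and the 2 transfections were compared here. The comparison held 12 of the 30 libraries of the series, chosen by their labels, with 6 I-miR-200c-3p libraries against 6 IC libraries. In each transfection, 3 libraries came from cells that received the vehicle dimethyl sulfoxide (DMSO) and 3 from cells that received Sorafenib, a multikinase inhibitor used in hepatocellular carcinoma, at 10 µM. Treatment began 24 h after a lipid transfection (Lipofectamine RNAiMAX), and lysates were taken 6 h later. All cells were of this 1 line. The study calls its replicates independent, the labels do not say whether they were separate cultures, and p-values measure the spread between these libraries. The question was which genes differed with the inhibitor in both treatments, and which differed only through IC replicates 1 and 2. Those replicates lay towards the levels of the other treatment, as described below.

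miRNAs guide Argonaute proteins to messenger RNAs that carry a match to the seed, bases 2 to 8 of the miRNA, and the bound messenger is repressed and often destabilised. Blocking a miRNA is therefore expected to raise the messengers it held down, if that miRNA is present. The miR-200 family is best known for keeping epithelial cells epithelial by repressing ZEB1 and ZEB2, transcription factors that switch off E-cadherin. Its members fall into 2 seed groups, which are shown because the inhibitor is directed at a member of the first and because their target sites differ.

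The mature sequences below are those of RefSeq (GRCh38.p14), 5′ to 3′, with the seed in capitals. miR-200c-3p lies on chr12:6963742-6963764 (+ strand), miR-200b-3p on chr1:1167160-1167181 (+), miR-429 on chr1:1169055-1169076 (+), miR-200a-3p on chr1:1167916-1167937 (+) and miR-141-3p on chr12:6964155-6964176 (+).
miR-200c-3p: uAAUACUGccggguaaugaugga
miR-200b-3p: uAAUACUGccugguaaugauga
miR-429: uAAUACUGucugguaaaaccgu
miR-200a-3p: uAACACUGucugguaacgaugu
miR-141-3p: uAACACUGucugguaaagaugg
The first 3 share the seed AAUACUG, and the last 2 share AACACUG.

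The target of that seed in a 3′ untranslated region (UTR) is CAGTATT, complementary to bases 2 to 8 and called a 7mer-m8 site. With an A behind it, CAGTATTA, it is an 8mer site, and AGTATTA alone is a 7mer-A1 site. ZEB1, on chr10:31318495-31529814 (+ strand, GRCh38, GENCODE 44), carried 6 sites of the first 2 kinds in its 3′ UTR, of which 3 were 8mers. These 3, and the 8mer of CFL2 (cofilin 2, an actin-severing protein), are shown with 30 bases of the transcript strand and the site in capitals. In order they are chr10:31527622-31527651, chr10:31528496-31528525, chr10:31528566-31528595 and, on the - strand, chr14:34712465-34712494.
ZEB1 site at UTR base 369: ttttatcttatCAGTATTAtcactcttatg
ZEB1 site at UTR base 1243: tttttacctatCAGTATTAttttatttctt
ZEB1 site at UTR base 1313: ttcaaacctggCAGTATTAatacccttctt
CFL2 site at UTR base 382: tcaacttttttCAGTATTAtttatagttgg

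Libraries were made with QuantSeq 3′ FWD, which reads 1 fragment near the 3′ end of a messenger. The total count, in units of 1e6, was 3.94 to 7.20 in the IC libraries (median 5.31) and 6.36 to 9.66 in the I-miR-200c-3p libraries (median 8.28). A count of 0 thus allows up to 0.311 to 0.762 CPM (counts per 1e6 counts of the library), taking 3 counts as the limit, which covers counting error only. All 12 hepatocyte and HepG2 markers, among them ALB, AFP and APOB, had counts. Together they held 12261 to 14280 CPM in IC and 13325 to 15690 CPM in I-miR-200c-3p. Of the other 8 marker lists, only that of red blood cells reached values in IC that lay far outside the range of I-miR-200c-3p. IC replicate 3 held 103 CPM of red blood cell markers in DMSO and 57.2 CPM in Sorafenib, against 5.47 to 10.7 CPM in the other 4 IC libraries and 0.12 to 11.3 CPM in I-miR-200c-3p. Of the 8 markers of this list 6 had a count, and HBG1, a fetal globin, was at 0 in all 12 libraries. These are bulk samples, in which fewer cells of a type and less RNA per cell cannot be told apart. Across genes, log-scaled levels correlated at 0.928 to 0.975 (median 0.954) between replicates of a group. Between the transfections within a treatment they correlated at 0.936 to 0.966 (median 0.953). The I-miR-200c-3p DMSO replicates were among the least alike, with 0.928, 0.928 and 0.945 for their pairs.

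No gene passed the test for an inhibitor effect shared by both treatments. Of 12738 genes tested with the edgeR quasi-likelihood test, treatment as a covariate and Benjamini-Hochberg adjustment, 0 (0%) had an adjusted p under 0.05, and the smallest adjusted p was 0.998. An unadjusted p under 0.05 was found for 539 genes (4.23%), where that threshold alone would give 637, with 247 higher (1.94%) and 292 lower (2.29%) in I-miR-200c-3p. DESeq2 also called 0 genes and had 602 at an unadjusted p under 0.05. The rule for a consistent gene needed an adjusted p under 0.05, 1 sign in both treatments, the same sign without IC replicates 1 and 2, and no rise confined to those 2 replicates. It was met by 0 genes. The error of these values is given as the SE (standard error), whose median on the log2 scale was 0.187, and 0.136 for the 6278 genes of at least 20 CPM.

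The treatments taken apart gave few calls. In DMSO 2 genes passed (0.0157%), both lower in I-miR-200c-3p, with 667 at an unadjusted p under 0.05 (5.24%), and DESeq2 called 5 there. In Sorafenib 0 passed (0%), with 273 at an unadjusted p under 0.05 (2.14%), and DESeq2 called 0 there with 305 at that threshold. The test of the difference between the 2 inhibitor effects, the interaction, passed for 0 genes (0%), with 413 at an unadjusted p under 0.05 (3.24%), while DESeq2 called 4 and had 440. Across genes, the log2 fold changes in the 2 treatments had a Pearson r of 0.025 and a Spearman rho of 0.061, and 53.0% of genes had the same sign. For genes of at least 20 CPM these were 0.139, 0.122 and 54.5%. Genes are not independent replicates, and the 2 contrasts share no library.

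**Figure D1:**
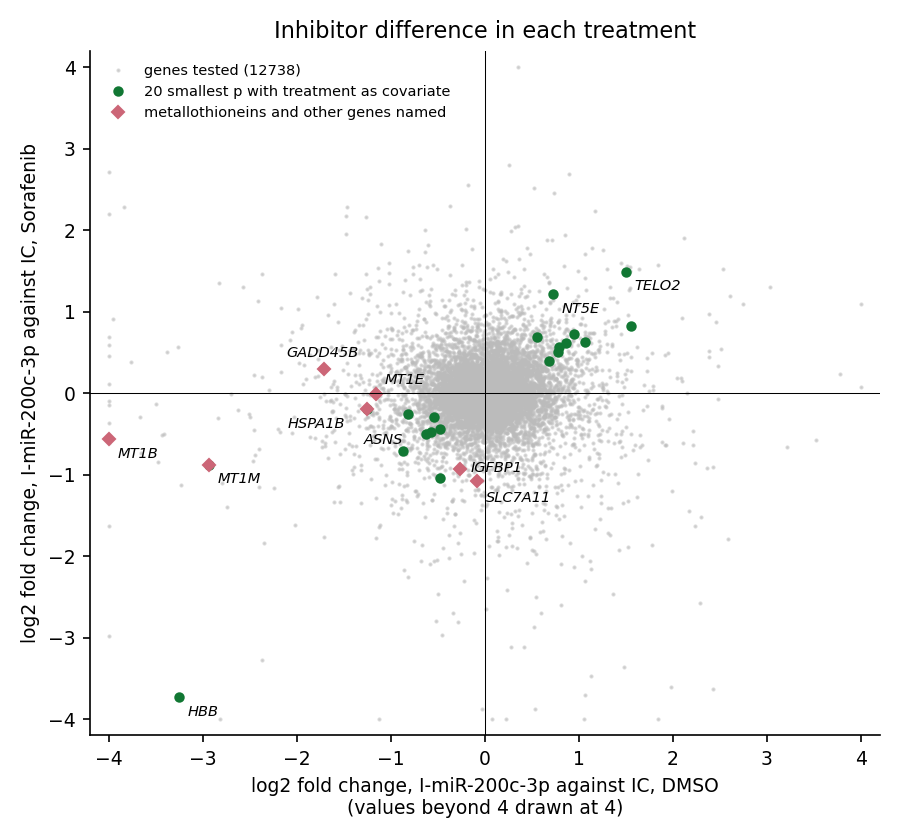
Each grey point is 1 of the 12738 genes tested, with its log2 fold change of I-miR-200c-3p against IC in DMSO on the x axis and in Sorafenib on the y axis. The cloud shows no slope (Pearson r = 0.025), 20 genes were named for their small p and their shared sign (green, except MT1M and HSPA1B in red), and MT1B and MT1M lie far to the left with smaller differences in Sorafenib.

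Since no gene passed, genes whose 2 transfections did not overlap in either treatment are described, as values only. All 3 I-miR-200c-3p libraries lay above all 3 IC libraries in both treatments for 27 genes (0.212%), and below them in both for 35 genes (0.275%). Within a single treatment the groups were apart for 9.84% of genes in DMSO and 8.13% in Sorafenib. Over all 12 libraries pooled, 11 genes (0.0864%) were apart and higher and 15 (0.118%) were apart and lower. None of these genes had an adjusted p under 0.05 by edgeR.

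ASNS, asparagine synthetase, had the smallest p of the genes named for a shared sign. Its gene lies on chr7:97851677-97872542 (- strand). In TMM-scaled CPM, the scale used for all levels of single genes below, it measured 34.2, 47.9 and 48.8 in IC DMSO and 41.9, 38.9 and 41.6 in IC Sorafenib. It measured 30.9, 28.4 and 25.6 in I-miR-200c-3p DMSO and 26.7, 28.7 and 31.2 in I-miR-200c-3p Sorafenib. The lowest IC library was thus above the highest I-miR-200c-3p library. The log2 fold change was -0.56 ± 0.13 (SE; unadjusted p = 0.000255, edgeR adjusted p = 0.998), and -0.68 without IC replicates 1 and 2. Here and below, a value without those replicates rests on 1 IC library per treatment, which is assumed to vary like the other groups.

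GARS1, glycyl-tRNA synthetase (chr7:30580533-30634033, + strand), showed the same order. It measured 103 to 112 CPM over the 6 IC libraries, with a median of 110.5, and 74.1 to 98.4 CPM over the 6 I-miR-200c-3p libraries, with a median of 76.7. The groups did not overlap, and the IC libraries lay close together. I-miR-200c-3p differed from IC by -0.42 ± 0.10 on the log2 scale (SE; unadjusted p = 0.000418, edgeR adjusted p = 0.998), with -0.55 in DMSO, -0.29 in Sorafenib and -0.44 without IC replicates 1 and 2. TXLNG, taxilin gamma, a syntaxin-binding protein (chrX:16786432-16844519, + strand), was apart within each treatment. Its means were 57.2 ± 9.45 in IC DMSO against 40.9 ± 4.27 in I-miR-200c-3p DMSO, and 46.3 ± 6.71 against 34.1 ± 1.32 in Sorafenib (SD, n = 3 each), with a log2 fold change of -0.46. TXLNG may share reads with a copy of the gene, so its level is uncertain. JPX, a long non-coding RNA gene, was also apart and lower in both treatments (-0.53, and -0.82 without IC replicates 1 and 2).

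On the other side stood GOLGA2P5, a transcribed pseudogene of the golgin GOLGA2 (chr12:100156621-100173159, - strand). It measured 12.5 to 18.4 CPM in the 6 IC libraries and 22.5 to 27.4 CPM in the 6 I-miR-200c-3p libraries, which did not overlap. Its log2 fold change was 0.62 ± 0.15 (SE; unadjusted p = 0.000435, edgeR adjusted p = 0.998), and 0.67 without IC replicates 1 and 2. As a pseudogene it may share reads with near-identical copies, so its level is uncertain. ERAL1, a GTPase needed to assemble the small mitochondrial ribosomal subunit, had a log2 fold change of 0.54, and its groups were apart within each treatment, though I-miR-200c-3p replicate 3 lay just above the highest IC library in both. It was 0.36 without IC replicates 1 and 2. NT5E, the ecto-5′-nucleotidase CD73 that makes adenosine outside the cell, was apart over all 12 libraries. It measured 1.96 to 5.96 CPM in IC and 6.36 to 12.5 CPM in I-miR-200c-3p, with a log2 fold change of 0.97 ± 0.28 (SE). ZNF414 (0.83), ARHGEF39 (0.64) and CNNM1 (0.73) were apart and higher within both treatments too.

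**Figure D2:**
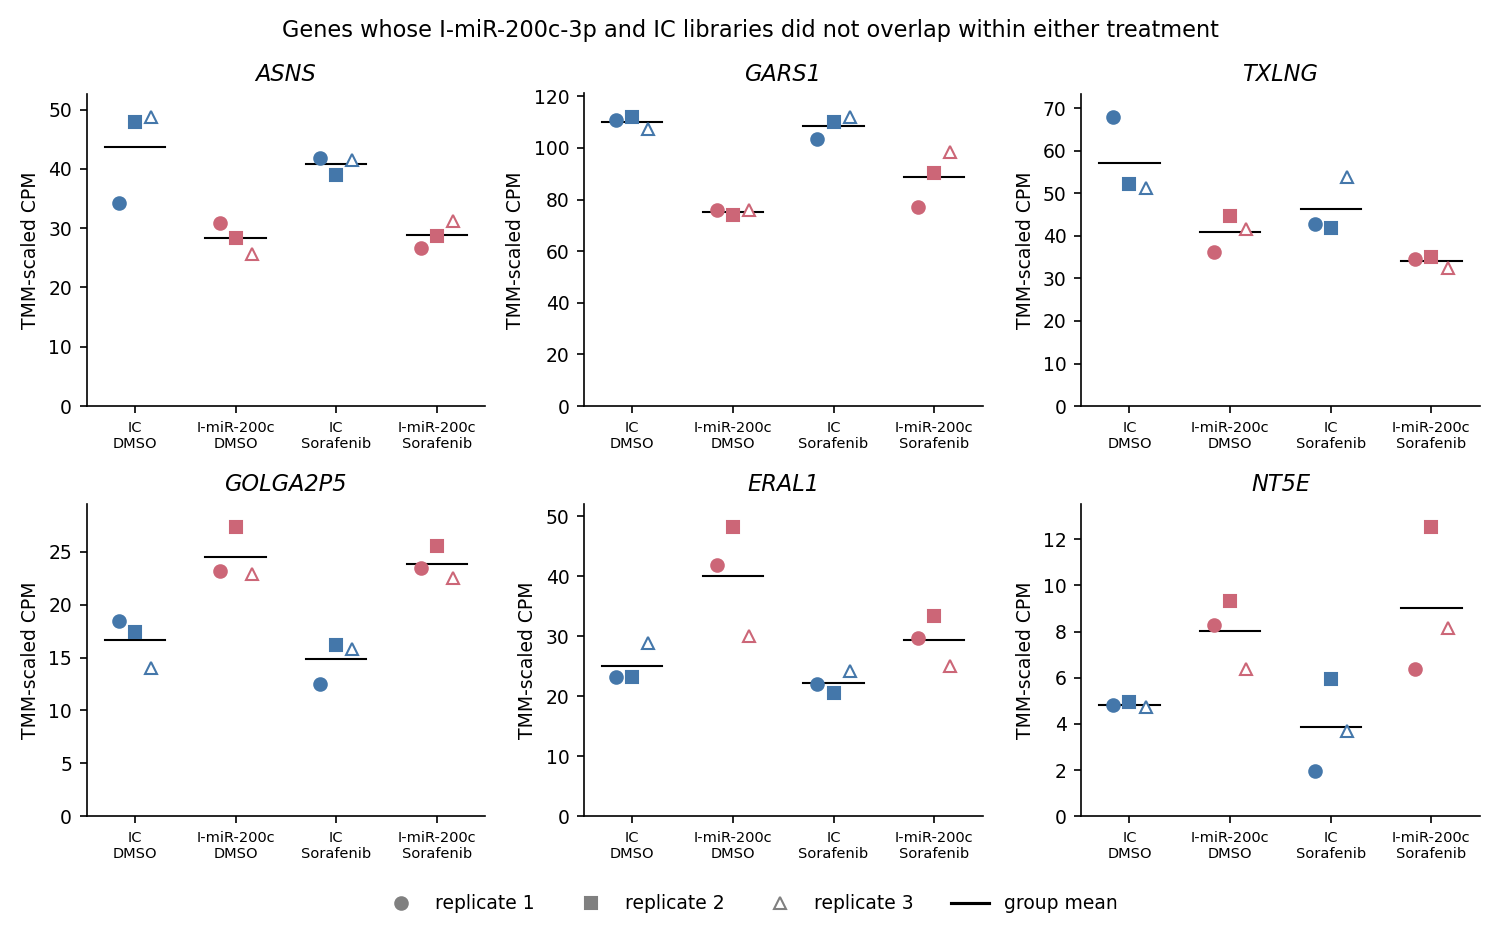
TMM-scaled CPM of 6 genes on the y axis in each of the 12 libraries, by transfection and treatment, with 1 symbol per replicate number and the group mean as a line. The red I-miR-200c-3p points lie below the blue IC points for ASNS, GARS1 and TXLNG and above them for GOLGA2P5, ERAL1 and NT5E within each treatment.

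Other genes named for a small p overlapped between the transfections in at least 1 treatment. Higher were MT-TT, the mitochondrial threonine tRNA (log2 fold change 0.67), TELO2, a stabiliser of PI3K-like kinases (1.5), INO80B, a subunit of the INO80 chromatin remodeller (0.84), and ELFN1-AS1, an antisense RNA (1.16). TELO2 was low, at 0.99 to 4.86 CPM in IC and 3.34 to 13.3 CPM in I-miR-200c-3p, and its value was 0.79 without IC replicates 1 and 2 and 2.05 without IC replicate 3. Lower were RSRP1 (-0.75), BORCS7, a subunit of the lysosome-moving BORC complex (-0.54), and the gene ENSG00000130489, for which the table used here held no symbol (-0.79). For RSRP1 the difference was -0.22 without IC replicates 1 and 2. Of the 539 genes at an unadjusted p under 0.05, 521 kept 1 sign in both treatments and without IC replicates 1 and 2 and were not raised only in those replicates. Of these 521, 132 still had an unadjusted p under 0.05 without IC replicates 1 and 2, with 42 higher and 90 lower, and 51 were apart in both treatments. Since all 12 libraries chose these genes, their counts describe them and support nothing.

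No textbook target of miR-200c-3p passed the test, and the locus of the miRNA gave no reads. The host gene MIR200CHG and the hairpins MIR200C and MIR141 had 0 counts in the 12 libraries and 0 in all 30, and a mature miRNA is not captured by libraries of this kind. No library therefore shows how much miR-200c-3p these cells held. Of 30 textbook targets 22 passed the low-count filter, and 13 were higher and 9 lower in I-miR-200c-3p, with a median log2 fold change of 0.02 against 0.005 over all genes tested. None of the 22 reached an unadjusted p under 0.05 in either direction, where 4.23% of all genes tested did. ZEB2, NTRK2, KDR and FLT1 were among the 8 targets that were not tested.

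ZEB1 measured 34.0, 37.8 and 15.0 CPM in IC DMSO and 44.2, 33.1 and 31.7 in IC Sorafenib. It measured 30.1, 36.7 and 30.2 in I-miR-200c-3p DMSO and 34.2, 32.8 and 28.0 in I-miR-200c-3p Sorafenib. IC DMSO replicate 3 stood below the other 11 libraries, and the transfections otherwise overlapped. The log2 fold change was -0.02 (95% interval -0.39 to 0.35), and it turned to 0.45 without IC replicates 1 and 2, where the low replicate 3 is the IC library left in DMSO. CFL2 had the smallest p among the targets (unadjusted p = 0.0998, edgeR adjusted p = 0.998), with 73.8 ± 10.2 CPM in IC DMSO and 86.0 ± 13.2 in I-miR-200c-3p DMSO, and 70.8 ± 8.07 against 79.6 ± 6.44 in Sorafenib (SD, n = 3 each). Its 95% interval was -0.04 to 0.43. TUBB3, a neuronal tubulin, had 0.44 (-0.17 to 1.05), WASF3, an actin regulator, 0.21 (-0.14 to 0.56) and MARCKS, an actin-binding substrate of protein kinase C, 0.14 (-0.08 to 0.36). On the lower side stood RECK, a membrane-anchored inhibitor of metalloproteinases, at -0.58 (-1.55 to 0.40), with a mean of 3.10 CPM. For FN1, fibronectin, at a mean of 1888 CPM, the log2 fold change was -0.07.

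**Figure D3:**
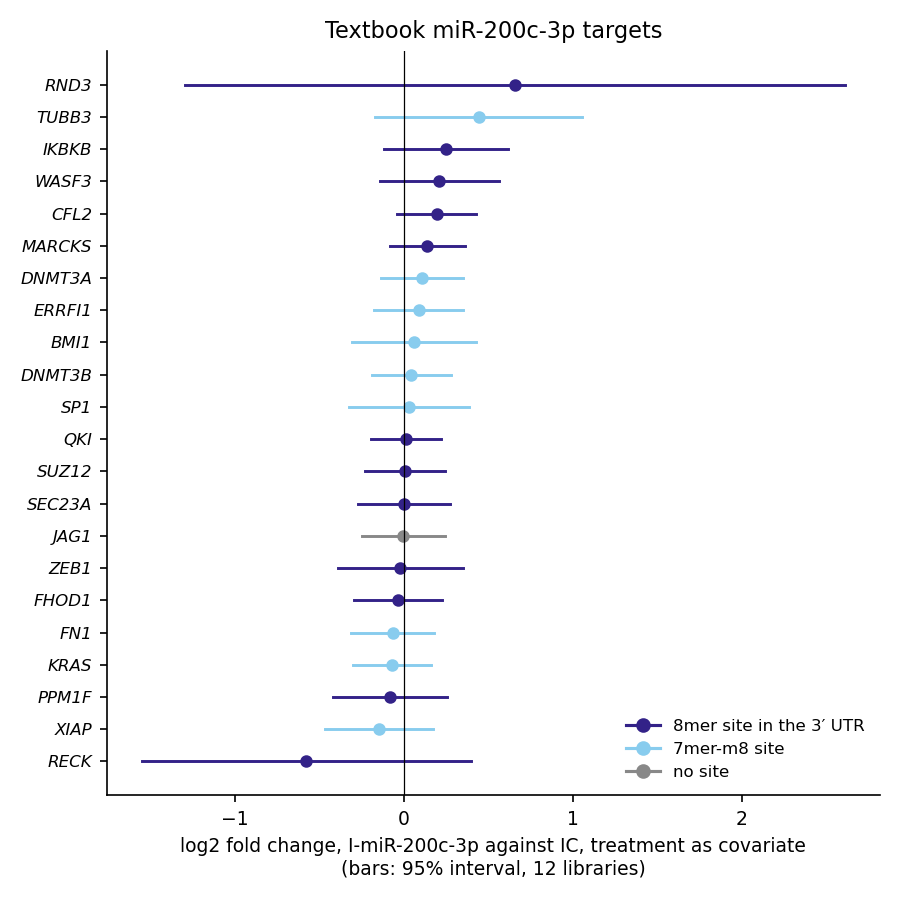
Log2 fold change of I-miR-200c-3p against IC with treatment as a covariate (x axis) for the 22 textbook targets tested (y axis), with bars for the 95% interval and colour for the strongest site in the 3′ UTR. Every interval includes 0, those of RND3 and RECK are the widest, and 8mer and 7mer-m8 genes lie on both sides.

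Genes were also grouped by their sites. Among 10969 tested genes with a 3′ UTR of at least 30 bases, 587 (5.35%) had an 8mer, 1535 (14.0%) a 7mer-m8 without an 8mer, 703 (6.41%) only a 7mer-A1 and 8144 (74.2%) none of them. UTRs were searched on the transcript strand, and an 8mer holds both of the shorter words. The median log2 fold changes were -0.006, 0.007, 0.009 and 0.006 in that order. Without IC replicates 1 and 2 they were 0.039, 0.034, 0.032 and -0.022, and without IC replicate 3 they were -0.031, -0.023, -0.010 and 0.015, so the order of genes with and without a site turned with the IC libraries used. The shares higher at an unadjusted p under 0.05 were 0.852%, 2.02%, 0.853% and 2.09%, beside 1.93% of all genes with a 3′ UTR. For the 320 genes with 3 or more sites the median was 0.005, with 0.046 in DMSO, -0.020 in Sorafenib and 0.056 without IC replicates 1 and 2. Genes with a site had longer UTRs, with a median of 3236 bases for 8mer genes and 940 bases for genes with none. Among the longest UTRs, the median was 0.005 for 1459 genes with an 8mer or 7mer-m8 and -0.003 for 1771 with no site. Without IC replicates 1 and 2 these were 0.055 and 0.006. Among UTRs of middle length the medians were 0.014 for 538 such genes and 0.003 for 2895 with no site. The shortest UTRs went the other way, with -0.042 for 125 such genes and 0.015 for 3478 with no site. Without IC replicates 1 and 2 the values of the shortest were -0.106 and -0.042. Of the textbook targets tested, 12 had an 8mer and 21 an 8mer or 7mer-m8, and 7 of the 12 were higher. JAG1, a Notch ligand, had no site in the transcript searched.

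The IC libraries differed among themselves in how far they followed their treatment. The scale was set without them, on 85 genes called with at least 2-fold change between Sorafenib and DMSO in the 24 h libraries of the miR-512-3p mimic and at least 2-fold apart in the same direction between the 2 I-miR-200c-3p means. The I-miR-200c-3p DMSO mean was put at 0% and the I-miR-200c-3p Sorafenib mean at 100%. IC DMSO replicates 1 and 2 lay at a median of 26.2% and 45.5%, and replicate 3 at 5.18%. IC Sorafenib replicates 1 and 2 lay at 80.9% and 74.9%, and replicate 3 at 101%. Replicates 1 and 2 thus lay further towards the other treatment than replicate 3 in both groups. The 53 genes higher with Sorafenib and the 32 genes lower with it put IC DMSO replicate 2 at 45.2% and 52.6%, and IC DMSO replicate 3 at 5.06% and 15.2%. Of the 53, both replicates lay above replicate 3 in IC DMSO for 41 and below it for 7, and in IC Sorafenib they lay below it for 35 and above it for 10. Of the 32, both lay below replicate 3 in IC DMSO for 19 and above it for 6, and in IC Sorafenib they lay above it for 24 and below it for 4. Pairs of IC replicates 1 and 2 were also the most alike of all replicate pairs. Their chi-square per degree of freedom, which grows with depth, was 5.75 in DMSO and 4.54 in Sorafenib. It was 10.3 to 14.8 for their pairs with replicate 3. The I-miR-200c-3p pairs, from mostly deeper libraries, had 12.1 to 55.5, so the libraries that set the ends of the scale varied too. I-miR-200c-3p DMSO replicate 2 held 26.8% mitochondrial counts, against 18.2% to 20.9% in the other libraries compared. Whether reads, RNA or cultures were mixed, or treatment was uneven, cannot be told apart in these counts.

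**Figure D4:**
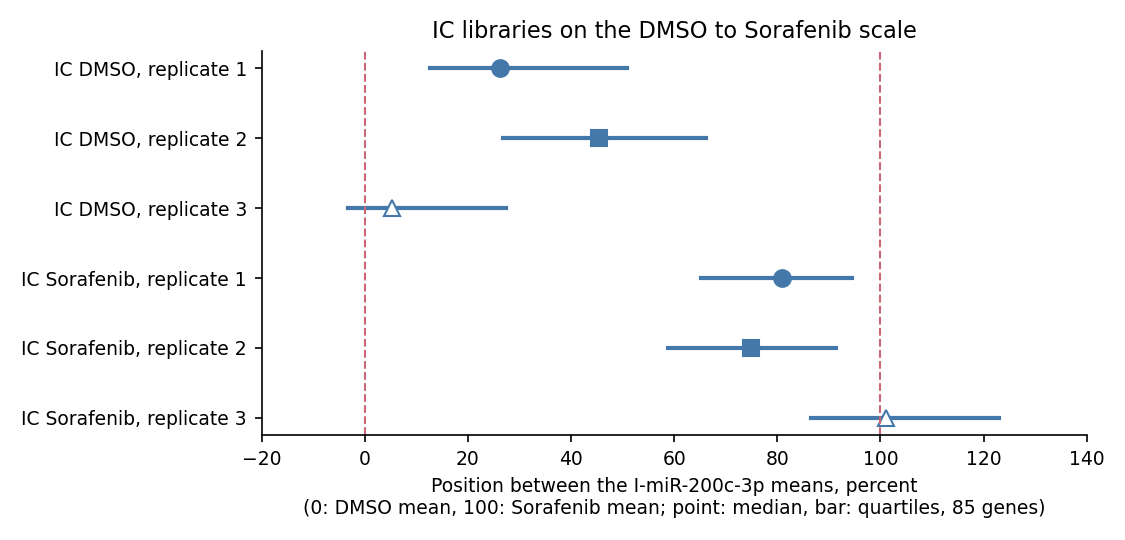
Position of each IC library (y axis) between the I-miR-200c-3p DMSO mean (0%) and Sorafenib mean (100%) in percent (x axis), with the median over 85 genes as a point and the quartiles as a bar. Replicates 1 and 2 lie inward at 26.2% and 45.5% in DMSO and 80.9% and 74.9% in Sorafenib, and replicate 3 lies near the ends.

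The clearest case in DMSO was MT1B, a metallothionein, of the family of small cysteine-rich proteins that bind zinc and copper (chr16:56651886-56653204, + strand). It measured 16.2, 36.3 and 0 CPM in IC DMSO and 0 in all 3 I-miR-200c-3p DMSO libraries. With Sorafenib it measured 54.3, 50.7 and 62.3 CPM in IC and 30.1, 35.8 and 46.9 CPM in I-miR-200c-3p. IC DMSO replicate 3 thus matched the inhibitor libraries at 0 counts, while replicates 1 and 2 held 81 and 154 counts. MT1B was 1 of the 2 genes called in DMSO (edgeR adjusted p = 0.0233), at least 134-fold lower in I-miR-200c-3p when its 0 counts are set to 3 over the group. Without IC replicates 1 and 2 all DMSO libraries left were at 0. MT1M (chr16:56632659-56633981, + strand) followed it, with 21.6, 32.6 and 1.00 CPM in IC DMSO against 2.15, 2.81 and 2.21 CPM in I-miR-200c-3p DMSO. Its log2 fold change in DMSO was -2.94 (edgeR adjusted p = 0.134). It was 1.23 without IC replicates 1 and 2, where the IC DMSO library left held 4 counts. In Sorafenib MT1M measured 57.3, 59.4 and 51.6 CPM in IC against a mean of 30.5 CPM in I-miR-200c-3p. There all IC libraries, replicate 3 included, lay above the inhibitor libraries, for MT1M and for MT1B. The log2 fold change of MT1M in Sorafenib was -0.88, and -0.78 without IC replicates 1 and 2. Near-identical copies of this family may share reads, so single members are uncertain. MT1B, MT1M and other metallothioneins were among the genes of the position scale, as were GADD45B and IGFBP1 below. Their levels are thus no separate support for that scale.

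MT1E (chr16:56625475-56627112, + strand) was the other gene called in DMSO, and there IC replicate 3 also lay above every inhibitor library. It measured 1134, 1363 and 758 CPM in IC DMSO and 464, 469 and 521 CPM in I-miR-200c-3p DMSO, which did not overlap. In Sorafenib it measured 2121, 1908 and 2795 CPM against 2125, 2269 and 2375 CPM, which did. The log2 fold change was -1.16 ± 0.18 (SE, edgeR adjusted p = 0.0233) in DMSO and -0.01 ± 0.18 in Sorafenib, with an interaction of 1.15 ± 0.25 (edgeR adjusted p = 0.439). Without IC replicates 1 and 2 the value in DMSO was -0.66 (edgeR adjusted p = 1.0). No gene was called in DMSO without IC DMSO replicate 1 or 2, without any of the 3 I-miR-200c-3p DMSO libraries, or without I-miR-200c-3p Sorafenib replicate 2. Without IC DMSO replicate 3, 7 genes were called, of which 6 were metallothioneins, and without IC Sorafenib replicate 2 or 3 there were 6 genes.

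Over the list of metallothioneins with the zinc exporter SLC30A1 and the zinc-sensing factor MTF1, 9 of 11 were lower, beside 48.9% of all genes tested, and 6 of 11 were so at an unadjusted p under 0.05, beside 2.29%. MT1B and MT1M of these were raised only in IC replicates 1 and 2 in DMSO. The median log2 fold change was -0.52 with treatment as a covariate, -1.16 in DMSO and 0.06 in Sorafenib. Without IC replicates 1 and 2 it was -0.32, with 9 of 11 still lower, and without IC replicate 3 it was -0.64. MT2A, the most abundant member, measured 2024, 2920.3 and 1291 CPM in IC DMSO and 952, 1020.0 and 931 CPM in I-miR-200c-3p DMSO. MT1G measured 673, 1075 and 308 CPM against a mean of 219.8 ± 24.4 CPM (SD, n = 3), the highest of which was 243. In both, replicate 3 was the IC library closest to the inhibitor libraries yet above each of them. The edgeR adjusted p in DMSO was 0.0522 for MT2A and for MT1G, and DESeq2 called both.

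GADD45B, a stress-induced growth-arrest gene (chr19:2476122-2478259, + strand), was raised in DMSO only in IC replicates 1 and 2. It measured 52.2, 93.2 and 17.3 CPM in IC DMSO and 17.4, 13.4 and 18.7 CPM in I-miR-200c-3p DMSO, while all 6 Sorafenib libraries held 147 to 233 CPM. Replicate 3 lay within the inhibitor range. In DMSO the log2 fold change was -1.72 (edgeR adjusted p = 0.134), and -0.08 without IC replicates 1 and 2. In Sorafenib the mirror image was seen for genes that Sorafenib lowers. IGFBP1, a secreted binding protein of insulin-like growth factors, measured 52.2, 56.8 and 20.7 CPM in IC Sorafenib and 20.2, 22.7 and 24.5 CPM in I-miR-200c-3p Sorafenib. In DMSO the 6 libraries held 58.6 to 105 CPM. In Sorafenib the log2 fold change was -0.94 with all libraries and 0.10 without IC replicates 1 and 2. GADD45B, IGFBP1 and SLC7A11 below were named because IC replicates 1 and 2 alone lay above the inhibitor libraries of that treatment. MT1B and MT1M in DMSO met the same rule. The loss of these differences without those replicates is all but fixed by that choice and supports nothing.

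SLC7A11, the cystine importer that feeds glutathione synthesis (chr4:138164097-138242349, - strand), had the same form. It measured 27.1, 34.9 and 12.1 CPM in IC Sorafenib and 8.56, 14.6 and 11.8 CPM in I-miR-200c-3p Sorafenib, so replicate 3 lay within the inhibitor range. Its log2 fold change in Sorafenib was -1.08 (unadjusted p = 0.00305, edgeR adjusted p = 1.0), and -0.08 without IC replicates 1 and 2. CYP1A1, an inducible oxidase controlled by the aryl hydrocarbon receptor, measured 12.6, 15.7 and 3.00 CPM in IC Sorafenib against 1.97, 1.98 and 0.12 CPM. In DMSO it measured 47.5, 33.7 and 70.8 CPM in IC against 60.0, 75.3 and 82.3 CPM, so that replicates 1 and 2 were low there and high in Sorafenib. The log2 fold change of CYP1A1 in Sorafenib was -2.88 (edgeR adjusted p = 0.488), -1.12 without IC replicates 1 and 2, and -3.33 without IC replicate 3 (edgeR adjusted p = 0.00867).

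**Figure D5:**
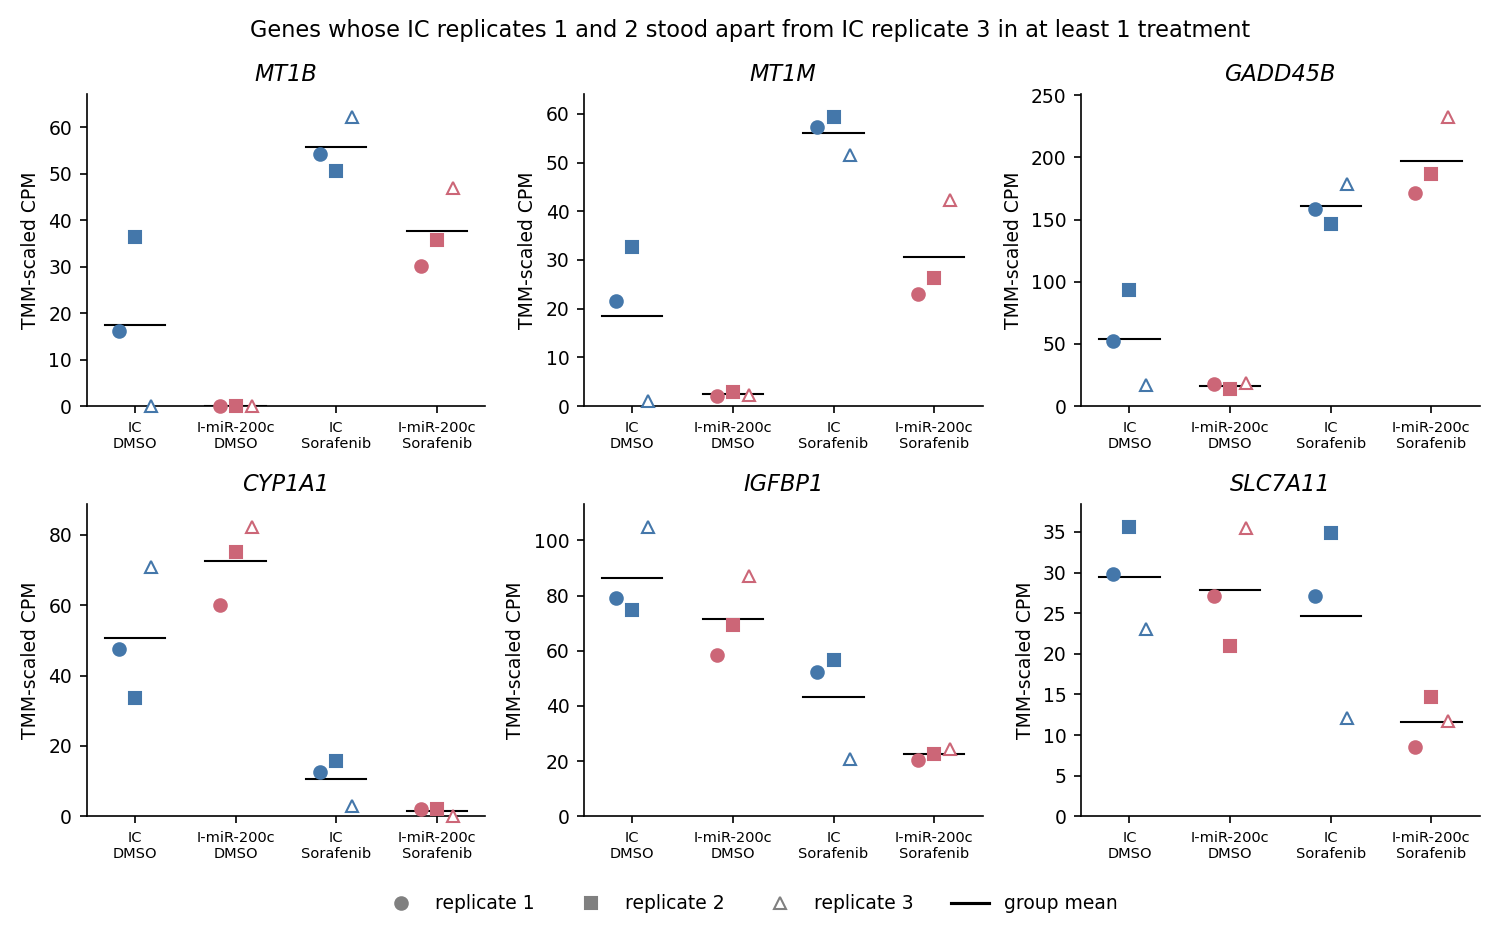
TMM-scaled CPM (y axis) of 6 genes in the 12 libraries by transfection and treatment, with 1 symbol per replicate number and the group mean as a line. IC replicates 1 and 2 lie above replicate 3 in DMSO for MT1B, MT1M and GADD45B and in Sorafenib for CYP1A1, IGFBP1 and SLC7A11, and in that treatment the open triangle of replicate 3 lies near the red inhibitor points.

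By the rule for genes raised only in IC replicates 1 and 2, both had to exceed replicate 3 and all inhibitor libraries of that treatment. They also had to exceed replicate 3 by 1 on the log2(CPM + 1) scale, and replicate 3 could not exceed the inhibitor range. The rule was met by 68 genes in DMSO (0.534%) and 85 in Sorafenib (0.667%), and by 1 in both (0.00785%), SNORD13. The reverse, lower only in those replicates, was met by 62 (0.487%) and 53 genes (0.416%). For replicates 1 and 3 the rule gave 47 genes in DMSO (0.369%) and 21 in Sorafenib (0.165%), and for replicates 2 and 3 it gave 37 (0.29%) and 26 (0.204%). With a difference of at least 2 in place of 1, replicates 1 and 2 gave 6 genes in DMSO (0.0471%) and 3 in Sorafenib (0.0236%). Of the 53 DMSO genes that were also tested with the miR-512-3p mimic, 7 (13.2%) were higher with Sorafenib there and 1 (1.89%) was lower. Of the 59 Sorafenib genes, 4 (6.78%) were lower with Sorafenib there and 3 (5.08%) were higher, so these went both ways. Of all genes tested in both, 4.04% were higher and 2.96% lower. Of the 539 genes at an unadjusted p under 0.05 with treatment as a covariate, 9 were raised only in these replicates. All 9 were lower in I-miR-200c-3p, a direction that the rule all but fixes.

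Replicate 3 could also lie low among the inhibitor libraries. H1-2, a linker histone, measured 217, 247 and 72.1 CPM in IC DMSO against 84.0, 158 and 128 CPM in I-miR-200c-3p DMSO, so replicate 3 was lower than every inhibitor library. With Sorafenib it measured 358, 302 and 148 CPM against 282, 357 and 158 CPM, so its mean was higher with Sorafenib in both transfections, with overlap in IC. SNORD13, a small nucleolar RNA, measured 68.7, 75.5 and 30.8 CPM in IC DMSO and 62.7, 65.2 and 29.7 CPM in IC Sorafenib, and its means in the inhibitor groups were 48.1 ± 15.9 and 41.4 ± 17.5 CPM (SD, n = 3 each). Other genes named by this rule were EFNA1, SETD2 and NRIP1 in DMSO and ITGB3BP and SNORA12 in Sorafenib. EFNA1, a membrane-bound ligand of Eph receptors, measured 88.5, 102 and 44.5 CPM in IC DMSO against 52.4, 48.6 and 63.6 CPM in I-miR-200c-3p DMSO, and 131 to 157 CPM in the 6 Sorafenib libraries.

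Genes that follow Sorafenib with the miR-512-3p mimic were also read as sets. For 471 genes higher with Sorafenib there, the median log2 fold change of I-miR-200c-3p against IC in DMSO was -0.107. It was -0.030 without IC replicates 1 and 2 and -0.146 without IC replicate 3, and 44 of the 471 were lower at an unadjusted p under 0.05, beside 276 of the 10855 genes that moved neither way with Sorafenib there. In Sorafenib these counts were 21 and 129. For 346 genes lower with Sorafenib the median in DMSO was 0.087, which stayed at 0.090 without IC replicates 1 and 2, and for the 10855 others it was 0.010. In Sorafenib the medians of the 3 sets were -0.066, 0.002 and 0.010, and -0.101, 0.120 and -0.009 without IC replicates 1 and 2.

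Genes of the stress and unfolded protein response lay mostly on the lower side. Of 21 genes tested, 19 were lower in I-miR-200c-3p, beside 48.9% of all genes tested, and 5 were so at an unadjusted p under 0.05, beside 2.29%. None passed the adjusted test with treatment as a covariate. The median log2 fold change was -0.19, with -0.29 in DMSO and -0.11 in Sorafenib, and it was -0.17 with 15 of 21 lower without IC replicates 1 and 2. The 5 were ASNS, HSPA1B, HSPA1A (-0.39), ATF4, the transcription factor of the integrated stress response (-0.25), and SESN2, a stress-induced inhibitor of mTORC1 (-0.27). HSPA1A and HSPA1B encode near-identical inducible HSP70 chaperones and may share reads, so each is uncertain.

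HSPA1B had its larger difference in DMSO, where it did not pass the edgeR test. It measured 59.5, 41.3 and 61.3 CPM in IC DMSO against 17.5, 21.0 and 29.1 CPM in I-miR-200c-3p DMSO, which did not overlap. With Sorafenib it measured 54.9, 51.3 and 83.0 CPM against 59.0, 55.9 and 50.5 CPM, which did. HSPA1B differed in DMSO by -1.26 ± 0.23 on the log2 scale (SE, edgeR adjusted p = 0.0522), and by -1.46 without IC replicates 1 and 2 (edgeR adjusted p = 1.0). DESeq2 called HSPA1B in DMSO (adjusted p = 0.000595). The interaction was 1.06 ± 0.31 (edgeR adjusted p = 1.0). HSPA1A, its copy, had -0.30 in DMSO and -0.49 in Sorafenib.

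Since ASNS and GARS1 stood among the lower genes with the smallest p, 2 further lists were drawn up after their values were seen. Of 15 genes tested of the ATF4 amino acid response, 13 were lower, beside 48.9% of all genes tested. At an unadjusted p under 0.05, beside 2.29%, were 3 of them, namely ASNS, NUPR1 (-0.42) and SLC7A11, the last of which was raised only in IC replicates 1 and 2 in Sorafenib (0.09 without them). The median was -0.13, and -0.04 with 10 of 15 lower without IC replicates 1 and 2. Of 20 cytosolic tRNA synthetases 12 were lower (48.9% of all genes tested), with a median of -0.03, and GARS1, TARS1 (-0.26) and AARS1 (-0.28) were so at an unadjusted p under 0.05 (2.29% of all). GARS1 and TARS1, which charge glycine and threonine tRNAs, were apart and lower in both treatments, as were 0.275% of all genes. Both lists were chosen for such genes, so their counts support nothing.

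Of the genes that the study names for miR-200c-3p, 9 were tested, with 7 lower (48.9% of all genes tested) and a median of -0.34, and -0.19 without IC replicates 1 and 2. The study drew this list on these samples from genes up-regulated after inhibition, so it is no independent evidence of a direction. The study set genes regulated with the inhibitor against those of its transfection control in Venn diagrams. Its contrast may thus differ from inhibitor against IC, and its direction may not be comparable with the lower values here. The study selected by mean count and fold change, unlike the test used here. Its 4 members at an unadjusted p under 0.05 were MT1M, HSPA1B, MT1B and SLC7A11, all lower in I-miR-200c-3p (2.29% of all genes tested), and MT1B was called in DMSO. Of these 4, MT1M, MT1B and SLC7A11 were raised only in IC replicates 1 and 2 in 1 treatment, and their values without those replicates were -0.34, -0.74 and 0.09. NFE2L2, the antioxidant regulator NRF2, had 0.08, PIM3, a survival kinase, -0.11, and ATP1B1, a sodium pump subunit, -0.15. Among epithelial and mesenchymal genes 10 of 18 were higher and 8 lower, beside 51.1% of all genes tested higher. Their median was 0.005, with 0 at an unadjusted p under 0.05. EPCAM, an epithelial adhesion protein, had 0.07 and CLDN1, a tight junction protein, 0.17. Of the miRNA machinery 5 of 13 were higher (51.1% of all genes tested), with a median of -0.002.

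HBB, the beta chain of haemoglobin (chr11:5225464-5229395, - strand), was highest in IC replicate 3 of both treatments. It measured 4.20, 7.55 and 75.8 CPM in IC DMSO and 6.05, 4.64 and 34.4 CPM in IC Sorafenib, against 0 to 8.95 CPM in I-miR-200c-3p. Its log2 fold change was -3.47 (edgeR adjusted p = 0.998), -4.79 without IC replicates 1 and 2 (edgeR adjusted p = 0.00587) and -1.60 without IC replicate 3. Without IC replicates 1 and 2, HBB and HBA2, an alpha chain whose reads may be shared with HBA1, were the only 2 genes called with treatment as a covariate. IC replicate 3, which lay nearest its own treatment on the position scale, thus carried the most red blood cell messengers, whose source was not tested.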

How the data were processed

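RNA libraries (QuantSeq 3′ FWD, 350 ng RNA, 15 to 19 PCR cycles, 65 sequencing cycles) were processed by the authors with STAR on GRCh38 and HTSeq-count in the Bluebee pipeline. The deposited table holds raw counts per Ensembl gene. Annotation release, strand setting and molecular identifiers are not given in the sources used here. The deposited normalised table was not used. Of its lines, 92 named no gene (3 counts in all) and were left out. Symbols were found for 40995 of 60107 genes. edgeR 4.0.16 (R 4.3.3) was run with TMM, the filterByExpr filter, two-sided quasi-likelihood tests and Benjamini-Hochberg adjustment, with treatment as a covariate or 1 coefficient for each of the 4 groups, and was tested on simulated data. SE is the log2 fold change divided by the square root of F. DESeq2 1.42.0 was an alternative. UTRs came from Ensembl-canonical transcripts of GENCODE 44. Named genes were all those called, the 10 with the smallest p in each direction (1 sign in both treatments, mean of at least 5 CPM), up to 5 per treatment raised only in IC replicates 1 and 2, and list members by p. The rule also named 1 Y-linked gene, which was left out. The libraries, lists and rules were chosen with earlier results of these data known, and the position scale was added after the counts were seen.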

Additional observations from a re-analysis of the deposited data

How the results depend on the processing

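With treatment as a covariate, 0 genes were called under RLE size factors, total counts, a filter of 10 counts in 6 libraries, DESeq2, each treatment alone and the removal of any 1 library (0 to 0). Without the low-count filter the calls were 34 with treatment as a covariate, 32 in DMSO, 7 in Sorafenib and 19 for the interaction, all genes that the filtered fit also tested, and the cause was not tested. Calls in DMSO (2) became 4 with total counts and 5 with DESeq2, which called 4 for the interaction. Without IC replicates 1 and 2 there were 2 calls with treatment as a covariate, 0 in DMSO and 1 in Sorafenib (HBA2). Without IC replicate 3 there were 8 in DMSO (7 metallothioneins and GADD45B), 2 in Sorafenib (CYP1A1 and IGFBP1) and 9 for the interaction. Leaving out 1 library gave 0 to 7 calls in DMSO, 0 to 2 in Sorafenib (2 without IC Sorafenib replicate 3) and 0 to 8 for the interaction (8 without IC DMSO replicate 3). The replicate block, with the replicate number as a term, left 0 calls in DMSO and 0 elsewhere. Same-numbered IC and I-miR-200c-3p libraries did not deviate together (correlation of deviations -0.058 to 0.062), so the numbers were not taken as pairs. Depth limits genes near 0.762 CPM, and 3 libraries a group limit the rest, where genes varied between replicates by 0.238 in common (edgeR's biological coefficient of variation), and by 0.324 without IC replicates 1 and 2.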

Other observations

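Gene groups of proliferation, metabolism and liver function showed no called member with treatment as a covariate. Of all genes tested, 51.1% were higher and 48.9% lower. At an unadjusted p under 0.05, 1.94% of all were higher and 2.29% lower. Of 20 mitosis genes tested, 13 were higher in I-miR-200c-3p, with a median log2 fold change of 0.06, and CCNB1, cyclin B1 (0.22), and KIF20A, a mitotic kinesin (0.29), had an unadjusted p under 0.05. The median was 0.21 with 17 of 20 higher without IC replicates 1 and 2, and -0.02 without IC replicate 3. Of 24 genes of sterol and fatty acid synthesis 15 were higher, with a median of 0.06 and 0 at that threshold. Of 20 secreted hepatocyte proteins 15 were higher, with a median of 0.05, while AMBP, the alpha-1-microglobulin precursor, was at -0.46. Of 15 interferon response genes 8 were higher and 7 lower, with a median of 0.005. Of 19 apoptosis regulators 10 were higher, and BBC3, the p53 target PUMA, was at -0.52 with all libraries and -0.04 without IC replicates 1 and 2. Of 17 immediate early and ERK output genes 9 were lower, with a median of -0.003. Of 18 NRF2 targets 9 were lower, with PGD, a pentose phosphate enzyme (-0.43), and SLC7A11 at an unadjusted p under 0.05. Of 6 genes of the aryl hydrocarbon receptor 5 were lower, with a median of -0.06.

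Near the miR-200c-3p locus, PHB2, a mitochondrial prohibitin, had a log2 fold change of -0.09 (95% interval -0.30 to 0.12), PTPN6, a phosphatase, -0.29, ATN1 0.04 and C12orf57 0.31. By the rule for genes at no more than 3 counts in each I-miR-200c-3p DMSO library and at least 5 CPM in I-miR-200c-3p Sorafenib, 2 genes were found, SIK1 and MT1B, and 0 genes met the reverse rule.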
